A study of Rattus norvegicus with 10 samples.

Results

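The genes described here code for the proteins of the cytosolic ribosome in rat liver. They were taken from the table's gene names: Rpl or Rps followed by a number, with a closing a, x, y or l and a further number allowed, together with Rplp0, Rplp1, Rplp2 and Rpsa. This gave 84 genes of 20226, of which 51 belong to the large (60S) subunit and 33 to the small (40S) subunit. All 10 libraries came from livers of wild-type Wistar rats. Every animal had been fed a diet with 60% of its calories as fat for 4 weeks and then injected, after 16 h without food, with streptozotocin (35 mg/kg), which kills the insulin-producing cells of the pancreas. Animals with a fasting glucose above 16.7 mmol/L 3 days later were divided at random into 2 weight-matched groups. The SG group (5 libraries) had a sleeve gastrectomy, an operation that removes most of the stomach, and is labelled at 3 months. The SHAM group (5 libraries) had a sham operation, with no time given. Both groups carry the diet and the toxin, and there is no untreated group. The labels do not say that each library is a separate rat, so the p-values measure only the spread between these samples.

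A ribosome holds 1 copy of nearly every ribosomal protein, and the genes for these proteins are known for being expressed together at high levels. Their messages begin with a run of pyrimidines, the 5′ terminal oligopyrimidine (TOP) tract, through which mTORC1 controls their translation. The liver makes large amounts of protein, and its ribosome content is known to follow feeding and growth signals.

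The start of transcription is shown for 8 of the genes, because the TOP tract is the sequence feature that the family shares and because these genes include abundant members and members at the head of the SG to SHAM comparison. Each line gives 30 bases of the RefSeq promoter table (build GRCr8), 5′ to 3′ on the gene's strand, with the annotated first base at position 16. Capitals mark a tract defined as a C at the first base followed by at least 4 bases that are each C or T. The first 6 genes carry such a tract. Rpl5 and Rpl23, the members with the smallest p in the comparison, do not carry it at the annotated base. Nor do Rps27a, Rpl26, Rps24, Rpl11, Rpl21, Rps19 and Rpl24, the next members by p, which are not shown. The abundant members Rpl4, Rpsa, Rps4x and Rps2, also not shown, lack it there too. The 8 lines therefore do not give the share of members with a tract.
Rpl31: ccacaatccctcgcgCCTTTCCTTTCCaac
Rpl37a: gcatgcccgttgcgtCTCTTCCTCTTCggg
Rpl22: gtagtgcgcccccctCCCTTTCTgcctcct
Rpl10: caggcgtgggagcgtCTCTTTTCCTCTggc
Rplp1: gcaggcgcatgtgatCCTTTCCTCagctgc
Rpl19: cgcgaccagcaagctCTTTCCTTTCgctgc
Rpl5: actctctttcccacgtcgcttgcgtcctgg
Rpl23: actaacttcctttctgactctttccggacg
The windows lie at chr9:49143096-49143125 (plus strand), chr9:81748076-81748105 (plus strand), chr5:168117946-168117975 (plus strand), chrX:157205835-157205864 (plus strand), chr8:71290858-71290887 (minus strand), chr10:83519049-83519078 (plus strand), chr14:1995211-1995240 (minus strand) and chr10:83272170-83272199 (minus strand). A window was found under the symbol of 64 members, with 65 windows in all. The tract was present in 21 of the 65 windows (32.3%), against 881 of 33469 promoters of all genes (2.63%) and 2 of 62 windows of mitochondrial ribosomal protein genes (3.23%). Tracts ran for 5 to 12 bases, with a median of 8. The letters CTTTC occurred within 20 bases of the first base, on the gene's strand, in 28 of the 65 windows (43.1%). They occurred in 4.97% of all promoters. In some windows they overlap the tract, as at Rpl19, and in others they occur without a tract, as at Rpl23. The reverse complement, GAAAG, occurred in 1 of the 65 windows and in 5.07% of all promoters. The annotated first base can lie some bases from the one used in liver, so a missing tract says only that these letters are not at that base.

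The libraries held 65824088 to 92110190 estimated fragments each. Ribosomal protein genes took 0.379% to 0.551% of them. Hepatocyte markers, of which 15 of 17 were in the table, summed to 41536 to 59468 FPKM per library. FPKM is the number of fragments per kilobase of isoform scaled to library size. It allows levels to be compared between genes only as far as the isoform length is correct. Rpl7, whose most abundant isoform has 5151 nt, had a mean of 9253.2 estimated fragments and 18.9 FPKM. Rpl19, whose most abundant isoform has 703 nt, had 9258.5 estimated fragments and 139 FPKM. CPM, counts scaled to library size without the division by length, was used in the tests.

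Members differed widely in level. The large subunit genes had a median of 43.0 FPKM, with quartiles at 19.5 and 76.7 FPKM, and the small subunit genes a median of 57.2 FPKM, with quartiles at 34.4 and 81.6 FPKM. Rpl10, a protein that joins the 60S subunit late in its maturation, was the highest large subunit gene at 303 FPKM over the 10 libraries. It was followed by Rplp0 (261 FPKM) and Rplp1 (194 FPKM), proteins of the lateral stalk that recruits elongation factors, then by Rpl19 (139 FPKM) and Rpl4 (138 FPKM), which lies along the exit tunnel of the nascent chain. In the small subunit the order was Rps18l1 (216 FPKM), Rpsa (182 FPKM), also known as the laminin receptor, Rps4x (134 FPKM), Rps2 (124 FPKM) and Rps15 (111 FPKM). Neighbours in these orders overlapped in their libraries: Rpl10 ran from 194 to 386 FPKM and Rplp0 from 201 to 293 FPKM. At the low end stood Rpl3l (0.0318 FPKM), Rpl30l1 (0.0399 FPKM), Rpl39l (0.0970 FPKM), Rpl39 (0.178 FPKM) and Rpl35a (0.563 FPKM), which did not reach the mean of 1 FPKM required for testing. The lowest member that reached it was Rps29 at 1.20 FPKM. Thus 79 members were tested, 46 of the large and 33 of the small subunit.

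For some proteins, other genes of the table held more signal than the gene with the symbol. The table holds 99 further genes whose description names a ribosomal protein but whose symbol is not one of those listed at the start, most of them LOC names, and 77 of them have a single exon. They held 19.9% of the FPKM of members and copies together. For 9 proteins (Rpl13a, Rpl35a, Rpl38, Rpl39, Rpl8, Rpl9, Rps12, Rps2 and Rps29) more than 50% of the FPKM lay in copies. Of the 99 copies, 8 are described as pseudogenes, among them LOC108350502 (132 FPKM), the only copy of Rps2. Rps29, a small zinc-binding protein of the 40S head, had 1.20 FPKM at its symbol, a single-exon locus at chr7:76980040-76980210 (build Rnor_6.0, as for all coordinates of the table below), and LOC108350501, with 3 exons at chr6:91357984-91478412, had 239.9 FPKM. That copy stood at 180.1, 249, 179, 565 and 199 FPKM in SG and 288, 219, 189, 178 and 153 FPKM in SHAM, with SG 4 far above the other libraries. Rpl39, a short protein at the tunnel exit, had 0.178 FPKM at a single-exon locus and LOC103690821, with 3 exons at chrX:123705235-123708211, had 43.2 FPKM. Rpl9 had 1.94 FPKM at its single-exon symbol locus, and LOC100360449, with 8 exons on chromosome 14, had 35.0 FPKM. No gene carried the symbols Rpl37, Rps7, Rps13 or Rps26, but each protein was named in the description of another gene, as for Rps7 in LOC100362830 (7 exons, chr6:47899525-47904437, 97.2 FPKM). With copies added, the ratio of the 90th to the 10th percentile over 73 proteins with a symbol gene (without Rpl10l, Rpl22l1, Rpl39l, Rpl3l, Rpl7l1, Rps27l and Rps4y2, which are paralogs) was 4.78, against 8.09 for the symbol genes alone, so the copies narrowed the spread of levels within the family.

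**Figure D1:**
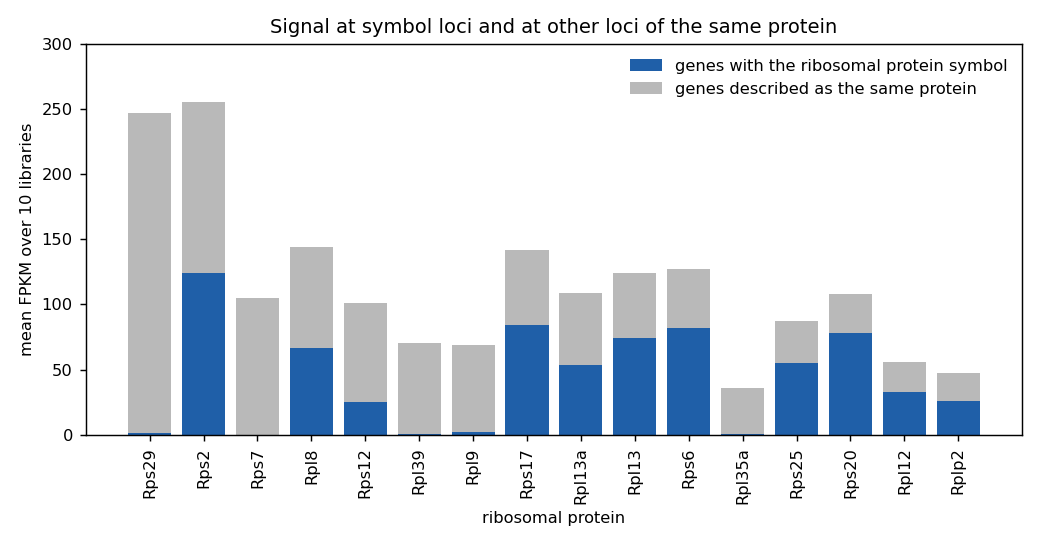
Mean FPKM over the 10 libraries (vertical axis) for the 16 ribosomal proteins with the most signal at copies. Blue bars are the genes that carry the ribosomal protein symbol and grey bars, stacked on them, are genes described as the same protein. Rps29, Rps7, Rpl39, Rpl9 and Rpl35a are almost entirely grey.

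Most FPKM of 12 members came from single-exon isoforms, the form of processed gene copies. Rps18, a protein of the 40S head, was a single-exon locus at chr10:104521700-104522241 with 14.2 FPKM, whereas Rps18l1 on chromosome 20, with up to 5 exons, held 216 FPKM. Rps27a, which is made as a fusion with ubiquitin, had 89.9% of its FPKM in a single-exon isoform on chromosome 5 and the rest in multi-exon isoforms on chromosome 14. Reads of such copies and of the parent gene cannot be told apart with certainty in estimated counts, so the values of single loci are uncertain.

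Summed over genes, the large subunit stood at 3082, 3744, 3298, 3450 and 3485 FPKM in SG 1 to SG 5 and at 3077, 3128, 2860, 2435 and 2446 FPKM in SHAM 1 to SHAM 5. The mean was 3412 ± 244 FPKM (SD, n = 5) in SG and 2789 ± 334 FPKM (SD, n = 5) in SHAM. SG 1 lay among the SHAM libraries, and SHAM 4 and SHAM 5 were the lowest. The small subunit stood at 2013, 2575, 2243, 2224 and 2459 FPKM in SG and at 2200, 2165, 2053, 1828 and 1716 FPKM in SHAM, so that both groups overlapped. After each library was rescaled to the same total (TPM), the ratio of the SG mean to the SHAM mean was 1.15 for the large and 1.09 for the small subunit, against 1.22 and 1.16 on FPKM. The ratio of large to small subunit FPKM was 1.42 to 1.55 in the SG libraries, and 1.33 to 1.44 in those of SHAM. These sums and ratios leave out the copies, which held 19.9% of the FPKM of members and copies together. LOC108350501, the main Rps29 copy, ran from 153 FPKM in SHAM 5 to 565 FPKM in SG 4. The subunit ratio with copies added was not computed, so no difference in subunit balance is read from these ratios. In bulk tissue, fewer cells of a type and less RNA per cell cannot be told apart.

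**Figure D2:**
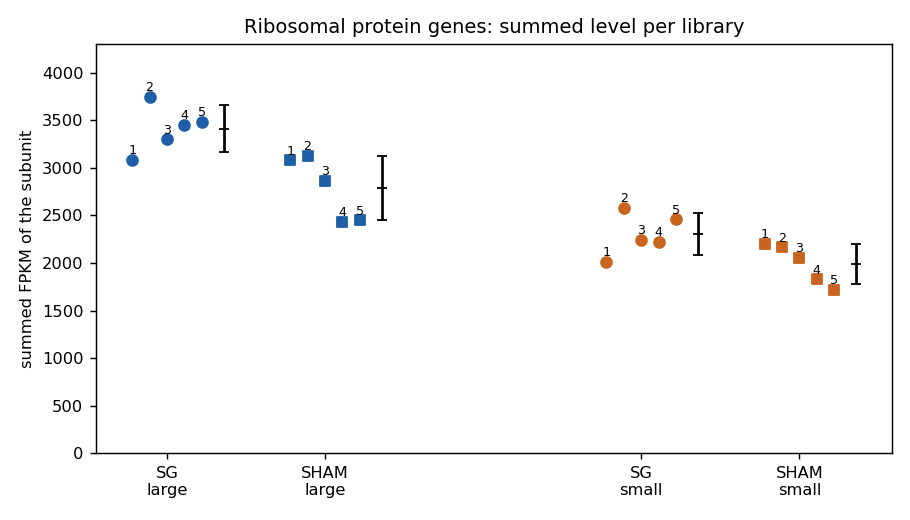
Summed FPKM of the large (blue) and small (orange) subunit genes in each library, with the library number above each point. Circles are SG, squares are SHAM, and black bars give mean ± SD of 5 libraries. SHAM 4 and SHAM 5 are the lowest of their group in both subunits, and SG 2 is the highest of all.

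No gene passed an adjusted p of 0.05 in the comparison of SG with SHAM (edgeR's quasi-likelihood test, 11139 genes, 0% called), members included, and the adjusted p was at least 0.991 for every member. At an unadjusted p under 0.05, 26 of the 79 members were higher in SG, against 2.68% of all genes tested (299), and 1 member was lower, against 1.85% of all genes (206). The higher members were 19 of 46 in the large and 7 of 33 in the small subunit. By DESeq2's Wald test, 18 genes passed the adjusted threshold, Rpl5 the only member among them (adjusted p = 0.00883), and by limma on FPKM none did. Unadjusted, DESeq2 placed 27 members higher (3.39% of all genes), limma on FPKM 31 (5.8%) and limma on TPM 15 (2.18%). The log2 fold change, SG minus SHAM, was above 0 for 65 of the 79 members (41 large, 24 small), against 47.4% of all genes, and by limma on FPKM it was above 0 for 73. The edgeR median was 0.24 for the large subunit, 0.13 for the small subunit and -0.01 for all genes. In 9 members every SG library lay above every SHAM library in log2 CPM, against 0.521% of all genes (58). These were Rpl5, Rpl22, Rpl23, Rpl26, Rpl37a, Rps4x, Rps23, Rps24 and Rps27a. In no member did every SG library lie below every SHAM library, against 0.269% of all genes. With reference isoforms only, which left 75 members to test, 18 of the 26 were higher at an unadjusted p under 0.05, against 2.55% of all genes.

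**Figure D3:**
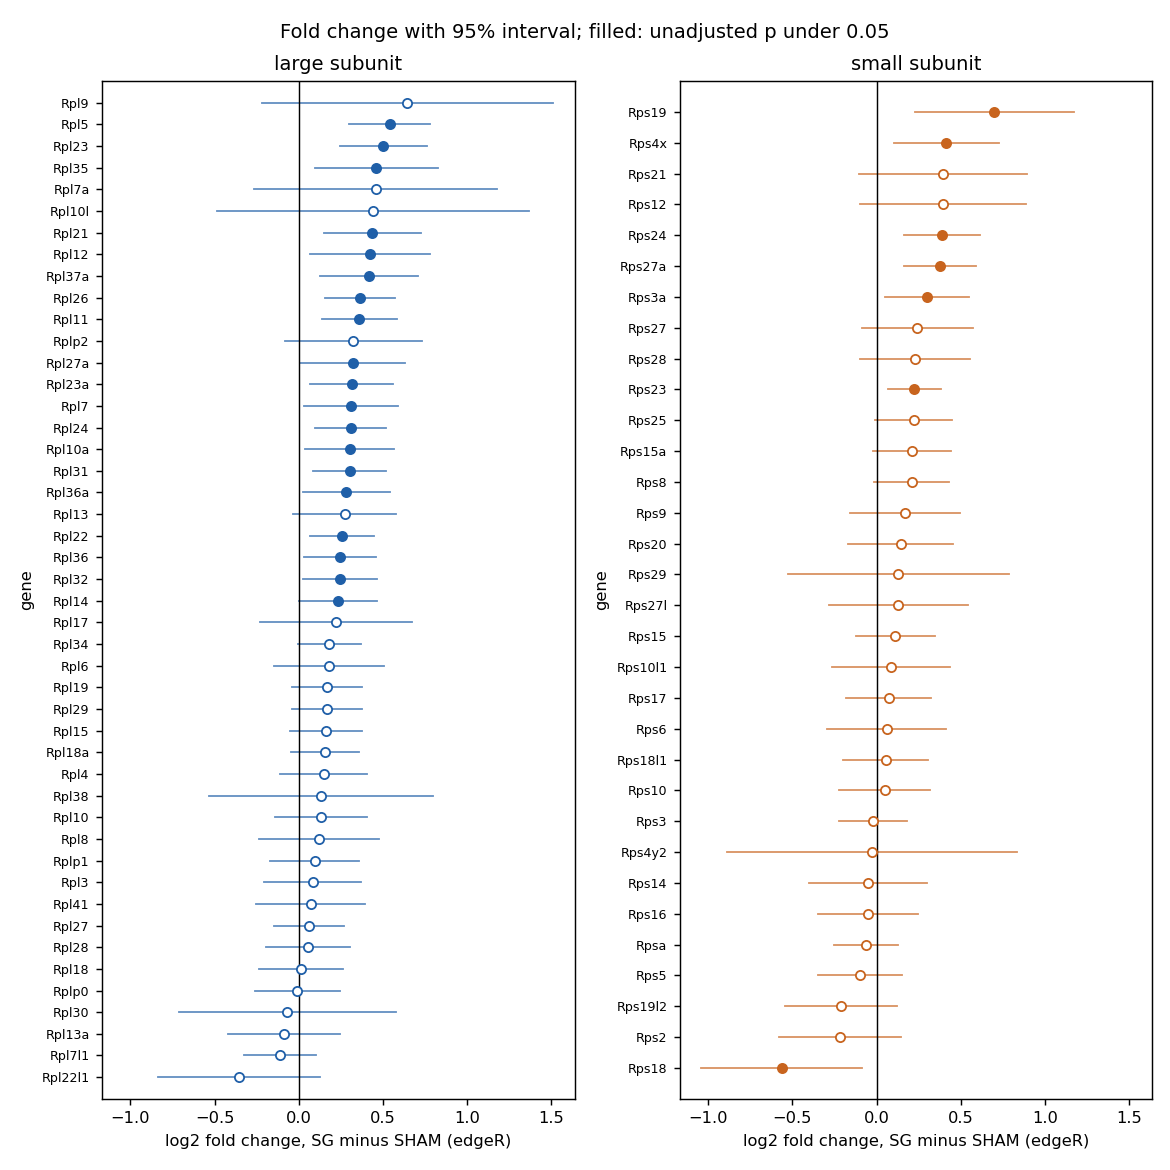
Log2 fold change (SG minus SHAM, horizontal axis) with its 95% interval for the 46 large (left) and 32 of the 33 small (right) subunit genes tested, ordered by size. Filled points have an unadjusted p under 0.05 and open points do not. Of the filled points 25 lie above 0, and Rps18 lies below 0.

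The highest and lowest values of members gathered in a few libraries. The highest log2 CPM of a member was found in SG 2 for 36 of 79 members, and the lowest in SHAM 5 for 33 and in SHAM 4 for 16. The median over members of the library's deviation from the gene's mean was -0.07, 0.23, 0.14, 0.12 and 0.05 log2 CPM in SG 1 to SG 5 and -0.04, -0.01, 0.02, -0.14 and -0.24 in SHAM 1 to SHAM 5. Without SG 2 the count of higher members was 17, against 2.3% of all genes, and without both SG 2 and SHAM 5 it was 15, against 2.8% of all genes, with 53 of 79 members above 0. Without SHAM 4 and SHAM 5, a choice made after seeing the data, it was 15 as well, against 4.3% of all genes, with 54 above 0. In each of these 2 fits 1 gene (0.00898%) passed the adjusted threshold, and it was no member. Cell type markers also stood apart in these libraries. SG 2 had the highest sum of stellate cell and fibroblast markers, SG 2 and SHAM 5 had the highest sums of macrophage markers, and SHAM 4 had the highest sum of red blood cell markers, as given below. T and NK cell markers summed to 22.2 FPKM in SG 2, 19.6 FPKM in SHAM 4 and 26.3 FPKM in SHAM 5, against 9.37 to 12.7 FPKM in the other libraries. The part of these in the result was not tested.

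**Figure D4:**
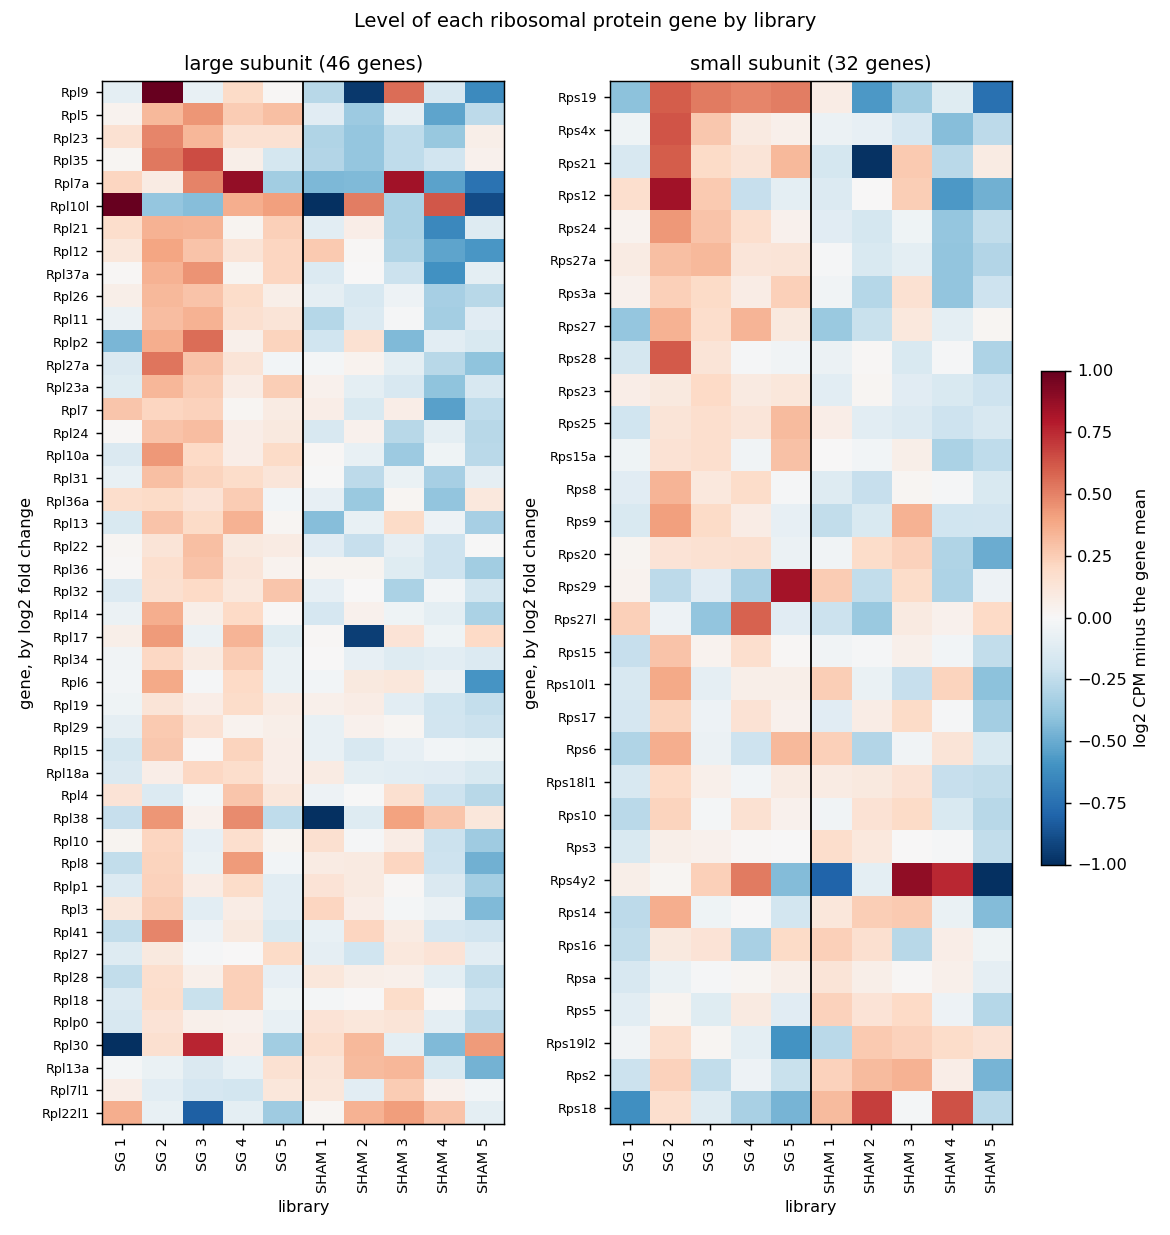
Log2 CPM minus the mean of the gene for 78 of the 79 tested members (rows, ordered by log2 fold change) in each library (columns), with SG left and SHAM right of the black line. Red is above and blue below the gene's mean, and colour is limited to the range from -1 to 1. The SG 2 column is mostly red, and the SHAM 4 and SHAM 5 columns are mostly blue.

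Rpl5 and Rpl11 bind the 5S ribosomal RNA in the central protuberance of the 60S subunit, and free complexes of the pair are known to bind Mdm2. In the order of libraries 1 to 5, as in all lists that follow, Rpl5 (chr14:2857201-2867397) stood at 32.5, 48.4, 52.6, 41.8 and 62.9 FPKM in SG and 33.8, 35.3, 24.98, 20.7 and 22.9 FPKM in SHAM. On that scale SG 1 lay within the SHAM range. In counts, Rpl5 stood at 6.06, 6.34, 6.47, 6.28 and 6.32 log2 CPM in SG and 5.91, 5.66, 5.93, 5.50 and 5.77 log2 CPM in SHAM, and the groups did not overlap. Its log2 fold change was 0.54 ± 0.11 (SE, 95% interval 0.30 to 0.78, unadjusted p = 0.000497), the third smallest p of all genes tested. The share of its isoforms varied between libraries: the reference isoform took 60.6 FPKM in SG 5 and 0.2 FPKM in SHAM 3. With reference isoforms only, the log2 fold change was 1.06 ± 0.97, and the unadjusted p was 0.303. Rpl11 stood at 69.0, 85.8, 103, 76.5 and 89.4 FPKM in SG and 52.3, 67.5, 73.9, 53.1 and 69.1 FPKM in SHAM, with SG 1 inside the SHAM range. The log2 fold change was 0.36 ± 0.10 (SE, 95% interval 0.14 to 0.58, unadjusted p = 0.00487), and with reference isoforms only it was 0.49 ± 0.61 (unadjusted p = 0.44).

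Of the stalk proteins, none was at an unadjusted p under 0.05. Rplp0, the base of the stalk, stood at 240.2, 291, 269.6, 266 and 275 FPKM in SG and 293, 289.5, 262, 225 and 201 FPKM in SHAM, with overlap of the groups. In edgeR the log2 fold change was -0.01 ± 0.11 (SE, 95% interval -0.26 to 0.25, unadjusted p = 0.942). Rplp1 gave 0.09 ± 0.12 and Rplp2 0.33 ± 0.18 on the same scale. Rpl12, which sits where the stalk joins the subunit, stood at 43.0, 49.9, 41.0, 33.4 and 37.3 FPKM in SG and 41.7, 24.3, 22.9, 17.9 and 15.2 FPKM in SHAM. SHAM 1 lay among the SG libraries, and the other SHAM libraries lay below all of SG. SG minus SHAM gave a log2 fold change of 0.43 ± 0.16 (SE, 95% interval 0.07 to 0.78, unadjusted p = 0.0236), and 1.32 ± 0.73 (unadjusted p = 0.1) with reference isoforms only and 0.27 ± 0.12 with copies summed.

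Rpl26, Rpl23a, Rpl35, Rpl31, Rpl19 and Rpl4 lie around the exit of the nascent chain or along its tunnel. Rpl26 (chr10:55492404-55496012) stood at 142, 169, 161, 149 and 153 FPKM in SG and 127, 122, 118, 97.2 and 102 FPKM in SHAM, and the lowest SG library lay above the highest SHAM library. Its log2 fold change was 0.36 ± 0.09 (SE, 95% interval 0.16 to 0.57, unadjusted p = 0.00269). Rpl23a, which with Rpl35 forms a docking site for the signal recognition particle, stood at 40.2, 54.3, 50.6, 44.1 and 55.9 FPKM in SG and 44.6, 40.7, 34.9, 29.6 and 35.4 FPKM in SHAM, with SG 1 and SG 4 inside the SHAM range. Rpl35 stood at 55.2, 77.7, 82.9, 54.3 and 51.9 FPKM in SG and 44.0, 41.3, 40.8, 42.8 and 50.7 FPKM in SHAM, and every SG library was above every SHAM library on this scale. In log2 CPM, the scale of the test, Rpl35 overlapped, and the log2 fold changes were 0.31 ± 0.11 for Rpl23a and 0.46 ± 0.17 for Rpl35. Rpl31, at the rim of the exit, gave 0.30 ± 0.10, and 0.01 ± 0.28 with reference isoforms only. Rpl19 (0.17 ± 0.09) and Rpl4 (0.15 ± 0.12), abundant members of the same region, had intervals that reached below 0.

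At the face that meets the small subunit, Rpl23 (chr10:85715497-85725429), the protein to which the anti-association factor eIF6 binds, stood at 22.6, 28.2, 24.9, 21.5 and 24.4 FPKM in SG and 16.4, 15.5, 15.3, 14.0 and 19.2 FPKM in SHAM. All SG libraries were above all SHAM libraries. The log2 fold change was 0.50 ± 0.12 (SE, 95% interval 0.24 to 0.76, unadjusted p = 0.00144). Rpl24, which forms a bridge to the small subunit, stood at 14.2, 17.0, 17.0, 14.1 and 16.3 FPKM in SG and 12.5, 14.7, 10.5, 12.0 and 10.5 FPKM in SHAM, with SG 1 and SG 4 below SHAM 2. In edgeR the log2 fold change was 0.31 ± 0.10 (SE, 95% interval 0.10 to 0.52, unadjusted p = 0.00869). Rpl37a, a zinc-binding protein, stood at 32.2, 41.2, 41.1, 28.5 and 35.8 FPKM in SG and 29.5, 31.9, 22.3, 17.7 and 27.7 FPKM in SHAM, overlapping on this scale but not in log2 CPM. SG minus SHAM gave a log2 fold change of 0.42 ± 0.13 (SE, 95% interval 0.12 to 0.71, unadjusted p = 0.00974). Rpl21 gave 0.44 ± 0.13, with most of its FPKM at single-exon loci on chromosomes 13 and X. Rpl10, the most abundant member, stood at 339, 386, 230.1, 362 and 337 FPKM in SG and 316, 322, 307, 194 and 232 FPKM in SHAM, and its log2 fold change was 0.13 ± 0.12 (SE, 95% interval -0.14 to 0.40, unadjusted p = 0.307).

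In the small subunit, Rps27a gave the smallest p. It stood at 62.7, 70.4, 73.5, 62.7 and 69.5 FPKM in SG and 57.9, 53.6, 49.7, 40.9 and 44.1 FPKM in SHAM, and the groups did not overlap. Its log2 fold change was 0.38 ± 0.10 (SE, 95% interval 0.17 to 0.59, unadjusted p = 0.0025). Rps23, a protein of the decoding centre, stood at 115, 116, 122, 112 and 127 FPKM in SG and 101, 110.3, 90.2, 88.4 and 85.7 FPKM in SHAM. The lowest SG library was just above the highest SHAM library, and the log2 fold change was 0.22 ± 0.07 (SE, 95% interval 0.07 to 0.38, unadjusted p = 0.00989). Rps23 also had the smallest spread within groups of all members, with an SD of 0.07 log2 CPM, against a median of 0.19 over members and of 0.26 over all genes. Rps4x, an X-linked protein of the 40S body, stood at 129.9, 205, 159.8, 140.1 and 149 FPKM in SG and 127, 126, 109, 91.2 and 101 FPKM in SHAM, with SG 2 the highest and no overlap. The log2 fold change was 0.42 ± 0.14 (SE, 95% interval 0.11 to 0.72, unadjusted p = 0.0135).

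Rps19 and Rps24 are both among the genes mutated in Diamond-Blackfan anaemia. Rps19 had the largest log2 fold change of the members, 0.70 ± 0.21 (SE, 95% interval 0.23 to 1.17, unadjusted p = 0.00752). It stood at 25.9, 51.9, 48.1, 46.5 and 53.2 FPKM in SG and 35.9, 23.0, 24.2, 28.5 and 18.6 FPKM in SHAM, so that SG 1 lay inside the SHAM range and the other SG libraries lay above it. Rps19l2, a gene of 6 exons on chromosome 9 described as the same protein, stood at 39.5, 43.1, 23.4, 36.6 and 18.4 FPKM in SG and 19.6, 48.7, 42.2, 41.6 and 40.9 FPKM in SHAM. With the counts of both genes and of 3 copies summed, a choice made after seeing the data, the log2 fold change was 0.15 ± 0.11 (SE, 95% interval -0.10 to 0.39, unadjusted p = 0.219), so the difference at Rps19 was not kept in the sum. The summed level was 72.8, 102, 78.3, 88.4 and 77.0 FPKM in SG and 61.5, 86.3, 77.4, 78.4 and 67.3 FPKM in SHAM. Rps24 (chr16:757403-763348) stood at 23.1, 48.8, 57.6, 67.8 and 38.2 FPKM in SG and 20.6, 19.8, 19.5, 31.5 and 17.3 FPKM in SHAM, a 2.16-fold difference of the mean FPKM. In counts it stood at 5.68, 6.08, 5.93, 5.82 and 5.69 log2 CPM in SG and 5.53, 5.47, 5.60, 5.26 and 5.40 log2 CPM in SHAM, a log2 fold change of 0.39 ± 0.10 (SE, 95% interval 0.16 to 0.62, unadjusted p = 0.0033) or 1.31-fold. Its isoforms differed between libraries: an assembled isoform of 570 nt stood at 27.7, 45.5 and 63.9 FPKM in SG 2, SG 3 and SG 4 and at 23.6 FPKM in SHAM 4, at 0.131 FPKM in SG 5, and was listed at 0 in the other libraries. These held a 1796 nt isoform or, in SG 5, also the 525 nt reference isoform. With reference isoforms only, the fitted log2 fold change was 3.22, and that value rests on SG 5.

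Rps3a, a protein near the exit of the message, gave 0.30 ± 0.11. Rps6, the substrate of S6 kinase, stood at 69.6, 92.9, 80.1, 69.8 and 118 FPKM in SG and 102, 66.6, 67.8, 77.4 and 71.5 FPKM in SHAM, and the groups overlapped. Its locus (chr5:105197857-105212785) overlaps LOC100911372 (chr5:105197857-105200694), a gene described as the same protein with 45.5 FPKM, so their reads are divided by estimate. In edgeR the log2 fold change was 0.06 ± 0.16 (SE, 95% interval -0.29 to 0.41, unadjusted p = 0.71). With the counts of both genes summed, a choice made after seeing the data, it was 0.23 ± 0.12 (SE, 95% interval -0.04 to 0.50, unadjusted p = 0.083). Rpsa stood at 169, 178, 181, 183 and 211 FPKM in SG and 202, 194, 169, 172 and 161 FPKM in SHAM, again with overlap, and its log2 fold change was -0.06 ± 0.09 (SE, 95% interval -0.25 to 0.13, unadjusted p = 0.476). The only member lower in SG at an unadjusted p under 0.05 was Rps18, the single-exon locus on chromosome 10. It stood at 9.24, 15.7, 12.5, 10.8 and 11.03 FPKM in SG and 17.4, 22.8, 12.5, 19.7 and 10.6 FPKM in SHAM, with SHAM 3 and SHAM 5 among the SG libraries, and its log2 fold change was -0.56 ± 0.21 (SE, 95% interval -1.04 to -0.09, unadjusted p = 0.0246). Rps18l1, which held most of the S18 signal, stood at 197, 253, 222, 209 and 251 FPKM in SG and 232, 235.2, 220.2, 169 and 169 FPKM in SHAM and gave 0.05 ± 0.11. With the counts of Rps18 and Rps18l1 summed, the log2 fold change was 0.01.

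Of the members with a negative log2 fold change, Rpl22l1 (-0.36 ± 0.22), Rps2 (-0.22 ± 0.16), Rps19l2 (-0.21 ± 0.15) and Rpl7l1 (-0.11 ± 0.10) came next by p, and none of these was at an unadjusted p under 0.05. Rpl22 and Rpl22l1 are a pair of paralogs, and Rpl22 protein is known to repress the other's message. Rpl22 stood at 15.03, 23.6, 18.8, 17.1 and 20.8 FPKM in SG and 13.5, 11.7, 16.6, 10.1 and 12.6 FPKM in SHAM, higher in SG in log2 CPM with no overlap, and its log2 fold change was 0.26 ± 0.09 (SE, 95% interval 0.06 to 0.45, unadjusted p = 0.0137), or 0.55 ± 0.22 with reference isoforms only. Rpl22l1 stood at 4.54, 3.14, 1.77, 2.98 and 2.84 FPKM in SG and 3.51, 4.41, 4.55, 4.22 and 3.02 FPKM in SHAM, and its groups overlapped. With reference isoforms only, the edgeR log2 fold change of Rpl22l1 was -0.87 ± 0.34 (unadjusted p = 0.0284). In the other pairs the second gene was lower in level. Rpl7l1 had 12.4 FPKM against 18.9 FPKM for Rpl7, Rpl10l 7.03 FPKM against 303 FPKM for Rpl10, and Rps4y2 3.08 FPKM against 134 FPKM for Rps4x. Rps27l, known as a p53 target, had 19.7 FPKM against 57.2 FPKM for Rps27. The log2 fold changes were 0.31 ± 0.13 for Rpl7, 0.44 ± 0.42 for Rpl10l, -0.03 ± 0.39 for Rps4y2, 0.24 ± 0.15 for Rps27 and 0.13 ± 0.19 for Rps27l, and of these only that of Rpl7 was at an unadjusted p under 0.05. No difference between paralogs was tested.

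The copies at other loci were higher in SG in 5 of 71 tested genes and lower in 2 at an unadjusted p under 0.05 (7.04% and 2.82%, against 2.68% and 1.85% of all genes), with a median log2 fold change of 0.13. On FPKM the copies together stood at 1195 to 1677 in SG and at 1023 to 1387 in SHAM. For Rps2, the protein at the entry of the message channel, member and copy together stood at 197, 279.6, 222, 268 and 289.6 FPKM in SG and 272, 281, 261, 278 and 208 FPKM in SHAM. That copy is described as a pseudogene.

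Ribosomal protein messages are short, with a median of 616 nt for the most abundant isoform, against 2319 nt for all genes tested. Among other genes with 2 or more exons, those higher in SG at an unadjusted p under 0.05 were 34 of 311 genes of 200 to under 600 nt (10.9%), 35 of 672 of 600 to under 1000 nt (5.21%) and 76 of 2920 of 1000 to under 2000 nt (2.60%), and no difference between these ranges was tested. The members counted 12 of 31, 4 of 19 and 6 of 15 in these ranges. The median log2 fold change of the other genes was 0.12, 0.01 and -0.01 in the order of length, and that of the members 0.22, 0.15 and 0.30. Short other genes (200 to under 600 nt) had median deviations of 0.08, 0.14, -0.03, 0.19 and 0.06 log2 CPM in SG 1 to SG 5 and -0.12, -0.11, 0.03, 0.00 and -0.01 in SHAM 1 to SHAM 5. The part of message length in the result was not tested.

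**Figure D5:**
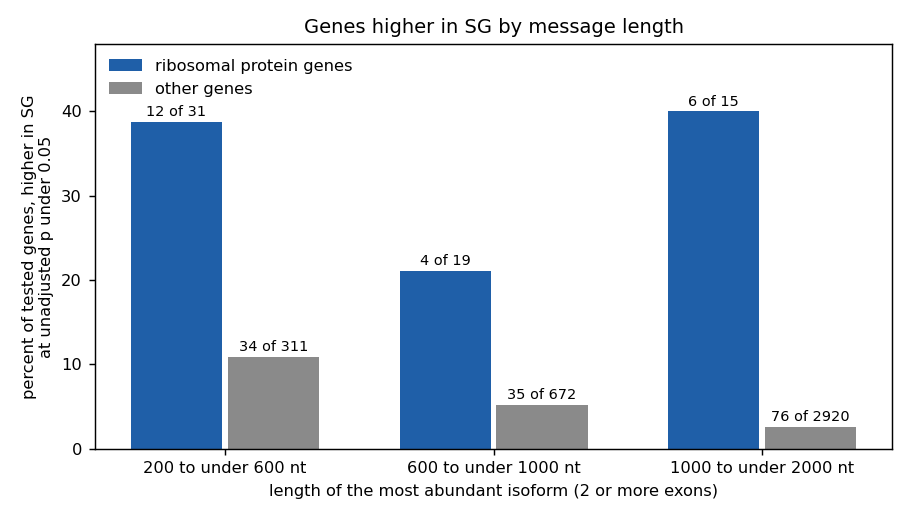
Percent of tested genes that were higher in SG at an unadjusted p under 0.05 (vertical axis) by length of the most abundant isoform, for ribosomal protein genes (blue) and other genes (grey) with 2 or more exons. Numbers above the bars are genes higher of genes tested. The grey bars fall with length, from 10.9% to 2.60%, and the blue bars run from 21.1% to 40% in no order of length.

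Members with and without the TOP tract had similar medians, and the difference was not tested. Among members with 1 window on the 1 chromosome where the table places all isoforms of the gene, the median log2 fold change was 0.22 in the 17 with a tract, of which 7 were higher at an unadjusted p under 0.05, and 0.21 in the 37 without it, of which 12 were higher. At that threshold, 2.68% of all genes tested were higher in SG and 1.85% were lower. Other genes known to have TOP messages were higher in SG in 5 of 17 tested and lower in none, with a median of 0.11. These were Tpt1 (0.49 ± 0.17), which encodes the translationally controlled tumour protein, Fau (0.42 ± 0.18), which encodes ribosomal protein S30 fused to a ubiquitin-like protein, Npm1 (0.40 ± 0.15), Naca (0.28 ± 0.08) and Eef1b2 (0.26 ± 0.10).

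The other lists around the ribosome had medians closer to 0. Translation factors had a median of -0.04 over 39 genes, with Eef1b2 higher and Eif6 lower (-0.36 ± 0.10), the latter encoding the factor that binds at Rpl23. Ribosome biogenesis genes had a median of -0.06 over 71 genes, with Npm1 higher and Imp3 lower (-0.39 ± 0.17). Genes of mTORC1 and 4E-BP control had a median of 0.00 over 19, with Rheb, the GTPase that activates mTORC1, lower (-0.19 ± 0.09). Genes of p53 and ribosome stress had a median of 0.07 over 13, with Gadd45a higher (0.75 ± 0.30). Mitochondrial ribosomal protein genes had a median of 0.04 over 74, with 5 higher, among them Mrps21 (0.32 ± 0.11) and Mrps35 (0.35 ± 0.12), and 1 lower, Mrps18b (-0.46 ± 0.13). All of these calls are at an unadjusted p under 0.05, where 2.68% of all genes were higher and 1.85% lower. The log2 fold change was above 0 for 21 of the 71 ribosome biogenesis genes, 17 of the 39 translation factors and 10 of the 19 mTORC1 genes. It was above 0 for 8 of the 13 p53 genes and 42 of the 74 mitochondrial ribosomal protein genes, against 47.4% of all genes. No difference between lists was tested.

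Cell type markers moved in both directions beside these values, and their part in the result was not tested. Hepatocyte markers had a median log2 fold change of -0.05 over 15 genes, with none at an unadjusted p under 0.05. Macrophage and Kupffer cell markers had a median of -0.34 over 13 genes and summed to 676 FPKM in SG 2 and 684 FPKM in SHAM 5, against 293 to 415 FPKM in the other 8 libraries. Stellate cell and fibroblast markers had a median of 0.26 over 11 genes, with Acta2 higher (0.91 ± 0.38), and summed to 131 FPKM in SG 2, against 47.2 to 86.9 FPKM in the other libraries. B and plasma cell markers, of which 3 of the 8 in the table were tested, had a median of 1.12, with Jchain and Ighm higher. The other tested marker went the other way, with a log2 fold change of -0.32. The markers in the table summed to 166 to 344 FPKM in SG and 97.5 to 232 FPKM in SHAM. Red blood cell markers had a median of -1.05 over 4 genes and summed to 135 to 489 FPKM in SG and 245 to 1203 FPKM in SHAM, with SHAM 4 at 1203 FPKM, SHAM 3 at 784 FPKM and SHAM 5 at 718 FPKM. Endothelial markers had a median of 0.07 over 10 genes, with Lyve1 lower (-0.45 ± 0.19). Cholangiocyte, T and NK cell markers had 1 tested gene each, and cell cycle genes had a median of 0.04 over 4. No marker in the table stood at 0 in every library.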

How the data were processed

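Ribosomal RNA was removed from liver RNA, which was sequenced from both ends of inserts near 300 bp, per the labels' protocols. Build Rnor_6.0 and the tools StringTie 1.3.4, HISAT2 2.0.4, FastQC 0.10.1 and cutadapt 1.9 are listed, per the submitters' processing notes. The authors deposited FPKM values and estimated counts of 51430 isoforms in 10 libraries. The deposited estimated counts are whole and follow the product of FPKM and length in each library, so reads shared by isoforms and copies are divided by estimate.

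Isoforms with class code =, c, j or o, which tie them to a reference gene on the same strand, were summed by gene name. The members have 189 isoforms, 125 of the reference and 64 assembled. Genes with a mean of at least 1 FPKM were tested on rounded counts with edgeR 4.0.16 (R 4.3.3, quasi-likelihood test, trimmed mean of M values), with Benjamini-Hochberg adjustment over 11139 genes and two-sided p-values. DESeq2 1.42.0 and limma 3.58.1 on log2(FPKM + 0.5) were alternatives, and the scripts were tested on simulated data. Values after ± are SD for FPKM and SE for log2 fold changes. Subunit lists are described by counts and medians, without a test.

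Members, lists and tests were chosen with earlier results of these data known. The genes named are the 5 highest and 5 lowest of each subunit, the 20 smallest p under 0.05, the 5 smallest p in each direction, fixed names and paralogs, and from each other list up to 2 genes per direction at an unadjusted p under 0.05. One of these genes, included in all counts, is not reported here by name and is not drawn. Others in the text were chosen after their values were seen. Copies are genes whose description names the same protein. Coordinates are those of the table. RefSeq windows were matched by symbol, and 7 members were left out where windows are set beside fold changes, because the table's gene lies on another chromosome or has isoforms on several.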

Additional observations from a re-analysis of the deposited data

Results flagged for a closer look

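In 7 of 100 groups of 5 libraries examined over the named members, 1 library stood apart from the other 4 by more than the 95% limit of Dixon's test, where chance gives about 5. Rps19 was 25.9 FPKM in SG 1 and 46.5 to 53.2 FPKM in the other SG libraries. Rps27 was 45.5 FPKM in SG 1, against 66.8 to 73.6 FPKM. Rps29 was 2.41 FPKM in SG 5, against 0.897 to 1.24 FPKM, and Rpl39l was 0.121 FPKM in SG 5 and listed at 0 in the other SG libraries. Rps24 was 31.5 FPKM in SHAM 4, against 17.3 to 20.6 FPKM, and Rps21 was 8.73 FPKM in SHAM 4, against 2.61 to 4.17 FPKM. Rps19l2 was 19.6 FPKM in SHAM 1, against 40.9 to 48.7 FPKM in the other SHAM libraries.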

How the results depend on the processing

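Estimated counts, close copies and 5 libraries a group limit these values, and no member held an adjusted call in edgeR. DESeq2 called 1 member (Rpl5). The count of members higher in SG was 15 with limma on TPM, against 2.18% of all genes. It was 15 without SG 2 and SHAM 5 (2.8% of all genes) and 15 without SHAM 4 and SHAM 5 (4.3%). When each library was left out in turn it was 17 to 32 (17 without SG 2), against 2.21% to 3.08% of all genes. The count of lower members was 0 with limma on log2(FPKM + 0.5) and with 0.1 added. It was 3 with reference isoforms only and 0 with copies summed by protein. Without SG 2 and SHAM 5 it was 3, without SHAM 4 and SHAM 5 it was 4, and 0 to 2 when each library was left out. Among all genes, the share lower in SG was counted in the main fit only, where it was 1.85%. The median log2 fold change of the large subunit was 0.37 and 0.38 by limma on FPKM, where the median of all genes was 0.08 and 0.09. Leaving out each library gave 0.21 to 0.26 for the large and 0.08 to 0.21 for the small subunit, and TPM ratios of 1.11 to 1.18 and 1.05 to 1.13. Members above 0 numbered 53 to 73 over all settings. The last pair of libraries left out and the summing of copies were chosen after seeing the data.

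The labels state no pairing of the samples by replicate number. The correlations of same-numbered libraries were 0.05, -0.22, -0.01, 0.01 and 0.14, which cannot settle whether samples were paired. With the replicate block 24 members were higher, against 2.44% of all genes, and 1 was lower, and SG 5 was the only SG library closest to its own number.

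Of 43 named members that were tested, 15 changed sign under some setting, and the cause was not tested. Without SG 2 and SHAM 5 the log2 fold changes were -0.059 for Rpl3, -0.021 for Rplp1, -0.089 for Rps10l1, -0.043 for Rps18l1 and -0.063 for Rps6. Without SHAM 4 and SHAM 5 they were -0.0040 for Rpl10, -0.042 for Rpl3, -0.029 for Rplp1 and -0.077 for Rps18l1. By limma with 0.5 and 0.1 added to FPKM and on TPM, they were 0.091, 0.091 and 0.0059 for Rplp0 and 0.19, 0.24 and 0.14 for Rps4y2, and on FPKM 0.040 and 0.040 for Rpsa. With the replicate block Rps4y2 was 0.16. With copies summed, Rps18 was 0.013 and Rps19l2 0.15. With reference isoforms only, Rps2 was 11.33, where that isoform was seen in SG 5 alone, and Rps21 was -1.39. Leaving out each library gave -0.0031 to 0.15 for Rpl3, -0.071 to 0.030 for Rplp0, -0.0059 to 0.16 for Rps10l1, -0.023 to 0.23 for Rps27l, -0.16 to 0.23 for Rps29, -0.23 to 0.25 for Rps4y2 and -0.030 to 0.14 for Rps6.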
